A study of Homo sapiens with 9 samples.

Results

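The 10 genes of bone morphogenetic protein (BMP) signalling described here are the ligand genes BMP2, BMP4, BMP6, BMP7 and GDF7, the inhibitor of DNA binding genes ID1, ID2, ID3 and ID4, and SMAD6. They were taken by symbol from a read count table of 60448 rows, in which all 10 have a row, and they had been picked with their levels and changes in these libraries in view, so their values are a description, and which of them passed the test over all genes is given beside the share of all genes and supports nothing. Of the 10, 7 passed the expression filter that left 15019 genes for testing. The table holds 9 RNA sequencing libraries of Huh7, a cell line established from a human hepatocellular carcinoma and kept in DMEM. In all, 3 groups of 3 libraries are named control, N_28 and N_30. Both N_28 and N_30 are OPA1 knock-downs, and the labels do not explain these names. OPA1 is a GTPase that fuses the inner mitochondrial membrane. The labels state lentivirus as the means of the knock-down and carry the same treatment text on the controls, and they name no control vector, clone or culture. The p-values below therefore rest on spread among libraries that could be technical replicates.

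BMP ligands are secreted dimers that bring type I and type II serine/threonine kinase receptors together, and the type I receptor phosphorylates SMAD1, SMAD5 and SMAD9, which enter the nucleus with SMAD4. ID genes are direct targets of these SMADs, and ID proteins are helix-loop-helix proteins without a DNA-binding region that hold E proteins away from DNA. SMAD6 is an inhibitory SMAD that is induced by the pathway and dampens it. In the liver, BMP6 from endothelial cells drives hepcidin in hepatocytes, and ID1, SMAD6, SMAD7 and ATOH8 respond beside it.

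The upstream sequences of ID1, ID2, ID3, BMP6 and GDF7 are shown because ID genes share a known regulator while their levels here took different courses, and because BMP6 and GDF7 had the widest ratios of highest to lowest library among the detected ligands. Each is the 250 bases before the RefSeq transcript start on GRCh38.p14, 5′ to 3′ on the gene's strand, with capitals for GTCT or its reverse complement AGAC, the short SMAD-binding box. The windows are chr20:31605039-31605288 (plus strand) for ID1, chr2:8681806-8682055 (plus strand) for ID2, chr1:23559502-23559751 (minus strand) for ID3, chr6:7725849-7726098 (plus strand) for BMP6 and chr2:20666894-20667143 (plus strand) for GDF7.
ID1: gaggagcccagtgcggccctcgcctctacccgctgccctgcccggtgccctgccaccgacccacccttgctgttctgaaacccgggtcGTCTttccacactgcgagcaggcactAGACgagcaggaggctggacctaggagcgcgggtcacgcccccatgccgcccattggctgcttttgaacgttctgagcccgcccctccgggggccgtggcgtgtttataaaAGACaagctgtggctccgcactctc
ID2: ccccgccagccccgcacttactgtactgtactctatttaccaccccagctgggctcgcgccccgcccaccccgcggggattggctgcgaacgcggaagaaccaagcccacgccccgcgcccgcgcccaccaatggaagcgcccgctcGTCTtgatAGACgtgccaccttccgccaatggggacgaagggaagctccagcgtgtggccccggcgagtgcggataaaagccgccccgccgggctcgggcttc
ID3: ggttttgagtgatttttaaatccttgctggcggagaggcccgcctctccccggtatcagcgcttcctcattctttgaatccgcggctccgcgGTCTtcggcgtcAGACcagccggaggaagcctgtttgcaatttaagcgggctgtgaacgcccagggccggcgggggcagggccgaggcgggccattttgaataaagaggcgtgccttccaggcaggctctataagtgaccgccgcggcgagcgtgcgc
BMP6: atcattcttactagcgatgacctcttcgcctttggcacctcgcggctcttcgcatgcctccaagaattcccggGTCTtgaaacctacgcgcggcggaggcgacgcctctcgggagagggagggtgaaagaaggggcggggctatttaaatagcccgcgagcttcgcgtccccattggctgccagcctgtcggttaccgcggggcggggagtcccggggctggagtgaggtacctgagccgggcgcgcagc
GDF7: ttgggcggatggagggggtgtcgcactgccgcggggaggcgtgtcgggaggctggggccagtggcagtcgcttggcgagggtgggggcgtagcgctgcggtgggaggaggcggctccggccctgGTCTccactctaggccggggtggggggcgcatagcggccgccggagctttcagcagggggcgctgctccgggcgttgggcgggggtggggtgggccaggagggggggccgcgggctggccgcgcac

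ID1 held 3 such boxes in this window, ID2 and ID3 held 2 each, and BMP6 and GDF7 held 1 each. Of 34943 windows of the same length before RefSeq starts, 77.5% held at least 1 box, with a median of 1, so a box in these windows is common. GGCGCC, the GC-rich SMAD element searched beside it, reads the same on both strands and cannot overlap a box. It was in 16.4% of all windows and in none of the 5 shown. In all, 8 members were in the promoter table with 10 windows, of which 9 held a box and 1, a BMP4 window, held GGCGCC. BMP2 and BMP7 had no entry. The G and C content was 66.0% for ID1, 69.2% for ID2, 62.0% for ID3, 64.4% for BMP6 and 77.6% for GDF7, against a median of 58.0% over all windows. A match describes letters in these windows and shows no binding.

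OPA1 itself stood at 62.6% of control in N_28 (adjusted p = 1.38e-05 by edgeR) and at 72.7% in N_30 (adjusted p = 0.00221), and no knock-down library reached the lowest control. Library totals ran from 16476389 to 22863328 counts, and 3 counts, the floor used here, equal 0.131 to 0.181 CPM, the count relative to the library total after scaling by trimmed mean of M values (TMM), for counting error only. The libraries numbered 3 stood apart from the others on the second principal component of the tested genes (13.9% of the variance), at 10.9 to 19.1 against 2.85 or lower. Defining hepatocyte genes were nearly absent in the cells labelled Huh7, controls included. APOB had 0 counts in all 9 libraries, and 5 of 12 hepatocyte markers reached 1 CPM in any library. The summed level of these 12 was 12.4 to 15.5 CPM in control, 6.76 to 8.21 CPM in N_28 and 13.8 to 19.1 CPM in N_30. Of the 5 tested, 3 fell in N_28, where 5.75% of all genes fell. In N_30 4 were higher than in N_28, where 9.38% of all genes were. The 3 that fell, TF, FGA and SERPINA1, were low in control already, at means of 4.01, 2.07 and 0.729 CPM. Of 7 fibroblast markers 3 reached 1 CPM, with a sum of 639 to 840 CPM in control, 602 to 760 CPM in N_28 and 714 to 877 CPM in N_30. Most of this sum was COL1A2, at a mean of 653 CPM in control. PDGFRA, PDGFRB and DCN did not reach 1 CPM in any library, and LUM was at 0. Among the 7 markers COL1A1 differed between the sets, with N_30 above N_28 (log2 difference 1.31, adjusted p = 0.00163). Of 6 endothelial markers 1 reached 1 CPM (PECAM1, which rose in N_28), with sums of 1.43 to 1.61 CPM in control, 2.25 to 2.99 CPM in N_28 and 1.74 to 2.31 CPM in N_30 and KDR at 0, and of 5 leukocyte markers none did, with CD3E and LYZ at 0. The part of these marker shifts in the values below was not tested. In these bulk libraries fewer cells of a type and less RNA per cell cannot be told apart.

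Among the ligands, BMP2 (chromosome 20, 6767664 to 6780280), the classical osteogenic BMP, and BMP7 (chromosome 20, 57168748 to 57266629), a ligand of kidney development, were at or near the detection limit. BMP2 had 0 to 4 counts per library and BMP7 had 0 to 2, with 0 in all 6 knock-down libraries. The fourth ID gene, ID4 (chromosome 6, 19837386 to 19840684), had 1 count in control library 2 and 0 in the other 8 libraries. No fold change is given for these 3 genes. All coordinates of genes are from GENCODE release 29 on GRCh38.

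BMP6 (ENSG00000153162, chromosome 6, 7726797 to 7881422, plus strand), the ligand best known for iron sensing in the liver, took opposite courses in the knock-down sets. Its level was 9.73, 7.41 and 7.13 CPM in control libraries 1 to 3, 13.3, 13.3 and 11.8 CPM in N_28, and 5.0, 4.58 and 4.14 CPM in N_30. All 3 N_28 libraries lay above all controls, and all 3 N_30 libraries lay below them. The group means were 8.09 ± 1.43, 12.8 ± 0.860 and 4.57 ± 0.427 CPM (SD, n = 3 each). The log2 fold change was 0.66 (SE 0.13) in N_28 and -0.83 (SE 0.14) in N_30, and N_30 was lower than N_28 by a log2 difference of -1.49 (SE 0.14).

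GDF7 (ENSG00000143869, chromosome 2, 20666664 to 20679245, plus strand), a BMP family ligand known from dorsal neural tube patterning and tendon, was low in N_30. It read 7.14, 4.85 and 7.26 CPM in control, 5.59, 7.36 and 6.81 CPM in N_28, and 3.37, 2.87 and 2.98 CPM in N_30. The N_30 libraries lay below the other 6, while N_28 and control overlapped. Its log2 fold change was 0.03 (SE 0.16) in N_28 and -1.07 (SE 0.18) in N_30. A long non-coding gene lies within GDF7 on the opposite strand and had 0 counts in every library.

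BMP4 (ENSG00000125378, chromosome 14, 53949736 to 53958761, minus strand), a ligand of mesoderm and endoderm patterning, was lowest in N_30 as well, with more spread in control. The values were 12.7, 7.77 and 9.87 CPM in control, 6.31, 9.34 and 8.08 CPM in N_28, and 6.38, 5.69 and 6.99 CPM in N_30. The N_30 libraries lay below all controls and overlapped N_28. The log2 fold changes of BMP4 were -0.36 (SE 0.18) in N_28 and -0.67 (SE 0.18) in N_30.

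Levels were compared between genes per length, as RPKM (CPM per kilobase of merged exons). In control, BMP4 stood at 3.28 ± 0.798 RPKM, BMP6 at 2.91 ± 0.514 RPKM and GDF7 at 0.658 ± 0.139 RPKM (SD, n = 3 each). The order of BMP4 and BMP6 was within their spread in control. BMP6 led in N_28, at 4.61 ± 0.309 RPKM against 2.57 ± 0.494 RPKM for BMP4, and BMP4 led in N_30, at 2.06 ± 0.212 RPKM against 1.64 ± 0.154 RPKM for BMP6. Summed over the 5 member ligands, the level was 6.87 ± 1.35 RPKM in control, 7.89 ± 0.648 RPKM in N_28 and 4.03 ± 0.217 RPKM in N_30. BMP6 made up 42.6% ± 3.77 of this sum in control, 58.6% ± 5.03 in N_28 and 40.8% ± 3.64 in N_30.

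**Figure D1:**
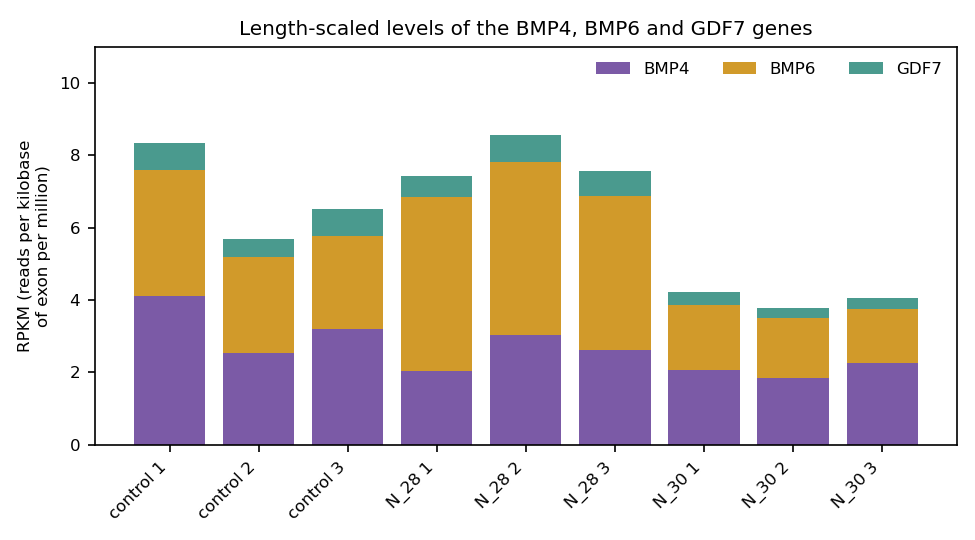
Length-scaled levels of BMP4, BMP6 and GDF7 in each library, stacked, in RPKM. The bars of the 3 N_30 libraries are the lowest, around their mean sum of 4.03 RPKM, and the BMP6 segment is longest in the 3 N_28 libraries.

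The ID genes did not move as a group. ID1 (ENSG00000125968, chromosome 20, 31605283 to 31606515, plus strand), the most used readout of BMP signalling, read 33.3, 26.7 and 28.9 CPM in control, 29.7, 27.7 and 28.6 CPM in N_28, and 24.9, 29.8 and 39.7 CPM in N_30. All groups overlapped, and the log2 fold change was -0.05 (SE 0.13) in N_28 and 0.09 (SE 0.13) in N_30. N_30 library 3 was the highest of the 9 and N_30 library 1 the lowest.

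ID2 (ENSG00000115738, chromosome 2, 8678845 to 8684453, plus strand), an inhibitor of differentiation known in lymphoid and neural cells, was high in N_28. Its values were 9.98, 11.2 and 9.46 CPM in control, 16.2, 13.7 and 15.8 CPM in N_28, and 8.97, 9.56 and 10.02 CPM in N_30. The 3 N_28 libraries lay above the other 6, and N_30 overlapped control. The log2 fold change was 0.58 (SE 0.10) in N_28 and -0.10 (SE 0.11) in N_30, with -0.68 (SE 0.10) between N_30 and N_28. The antisense gene ID2-AS1 overlaps ID2 and had 1 to 16 counts, against 149 to 362 for ID2. The strand setting of the counting is not known here, so reads in the overlap cannot be told apart.

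ID3 (ENSG00000117318, chromosome 1, 23557918 to 23559794, minus strand), often induced with ID1, was low in N_30. It read 64.9, 52.9 and 55.8 CPM in control, 53.2, 53.5 and 75.9 CPM in N_28, and 36.5, 37.4 and 51.2 CPM in N_30. The N_30 libraries lay below all others, and in both knock-down sets library 3 was the highest. The log2 fold change was 0.08 (SE 0.15) in N_28 and -0.47 (SE 0.15) in N_30. Without the libraries numbered 3 it was -0.67 in N_30. Between N_30 and N_28 it was -0.54 (SE 0.15), and without N_28 library 3 it was -0.35.

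SMAD6 (ENSG00000137834, chromosome 15, 66702228 to 66782848, plus strand) had the smallest ratio of highest to lowest library among the 7 detected members. It stood at 78.7, 66.2 and 73.6 CPM in control, 60.7, 62.3 and 66.8 CPM in N_28, and 64.0, 60.9 and 67.9 CPM in N_30. Both sets overlapped control at its lowest library, with log2 fold changes of -0.20 (SE 0.07) in N_28 and -0.18 (SE 0.07) in N_30. Per length, the members in control ranked ID3 (32.2 ± 3.49 RPKM), ID1 (24.0 ± 2.72), SMAD6 (8.51 ± 0.732) and ID2 (4.63 ± 0.403), each apart from the next by more than the spread of the libraries. In N_30, ID1 (25.5 ± 6.10 RPKM) and ID3 (23.2 ± 4.60) overlapped.

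**Figure D2:**
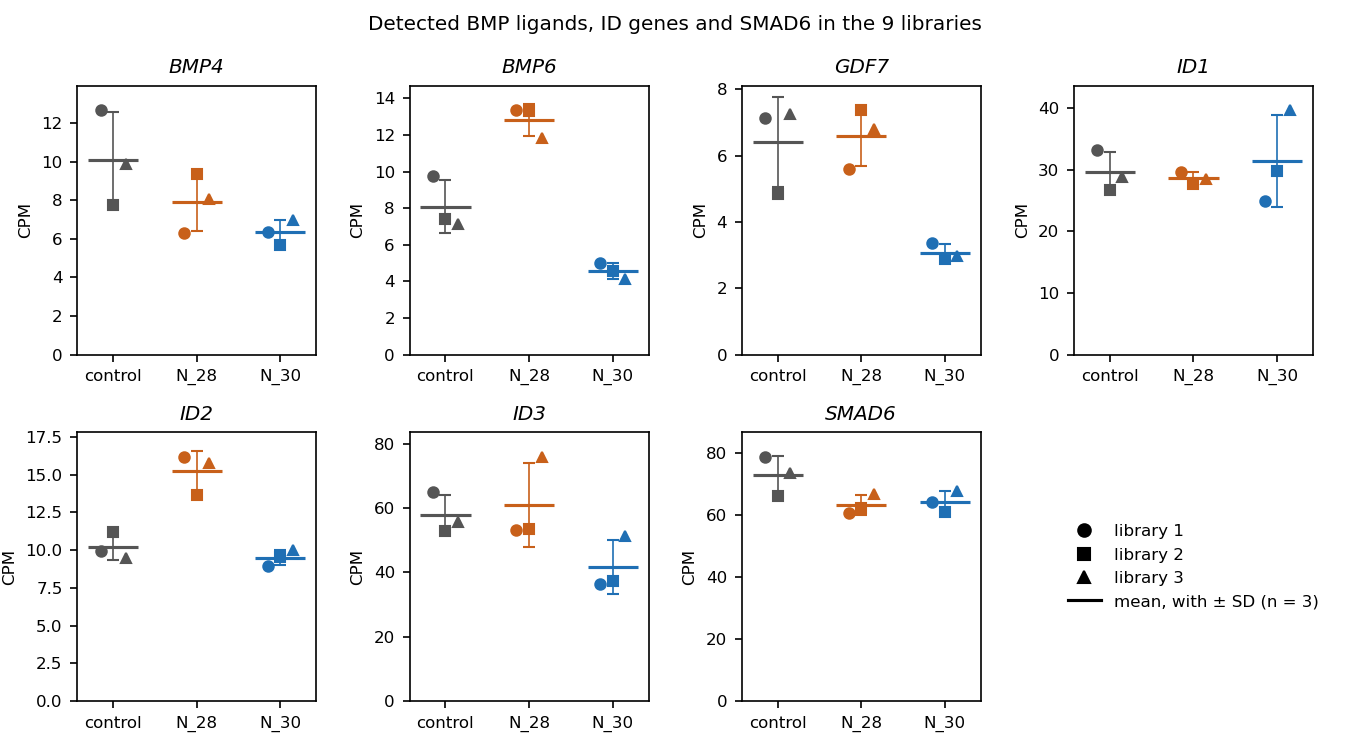
CPM of the 7 detected members in each of the 9 libraries. Symbols give the library number, horizontal lines the group mean and vertical bars ± SD (n = 3). BMP6 is high in N_28 and low in N_30, ID2 is high in N_28, GDF7 and ID3 are low in N_30, and ID1 overlaps in all groups.

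At an adjusted p under 0.05 (edgeR's quasi-likelihood test over all 15019 genes), 2 of the 7 tested members passed in N_28 against control, BMP6 and ID2, both higher, where 10.2% of all genes passed, 4.49% higher and 5.75% lower. In N_30 against control 2 passed, BMP6 and GDF7, both lower, where 0.866% of all genes passed, 0.459% higher and 0.406% lower. In N_30 against N_28 4 passed, BMP6, GDF7, ID2 and ID3, all lower, where 18.3% passed, 9.38% higher and 8.96% lower. The members had been picked on these contrasts, so nothing is read from the counts. N_28 and N_30 were set against the same 3 controls. In N_28 against control the libraries of 2 members did not overlap, both higher, against 28.7% of all genes (14.2% higher, 14.6% lower). In N_30 against control 4 members did not overlap, all lower, against 15.2% (7.53% higher, 7.64% lower). Between the sets 4 did not overlap, all lower in N_30, against 36.4% (18.4% higher, 18.1% lower).

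With the replicate number as a block, BMP4 and ID3 passed in N_30 as well, giving 4 lower members, where 2.82% of all genes passed (1.55% higher, 1.27% lower). The block added SMAD6 as lower in N_28, for 2 higher and 1 lower member, where 15.3% passed (7.11% higher, 8.21% lower). Between the sets the block gave 4 lower members, where 24.5% passed (12.6% higher, 11.9% lower). SMAD6 also passed in N_28 without control replicate 2 (-0.27), BMP4 in N_30 without control replicate 2 (-0.82) and ID3 in N_30 without N_30 replicate 3 (-0.65) or the libraries numbered 3 (-0.67). With no filter on low counts BMP4 and ID3 passed in N_30, as BMP4 did by DESeq2. BMP6 did not pass in N_30 without N_30 replicate 2 (-0.83), nor GDF7 without control replicate 3 (-0.97), without N_30 replicate 2 (-1.03) or without the libraries numbered 3 (-0.95). ID3 did not pass between the sets without N_28 replicate 3 (-0.35), N_30 replicate 1 (-0.46) or N_30 replicate 2 (-0.47), nor by DESeq2 (-0.55).

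**Figure D3:**
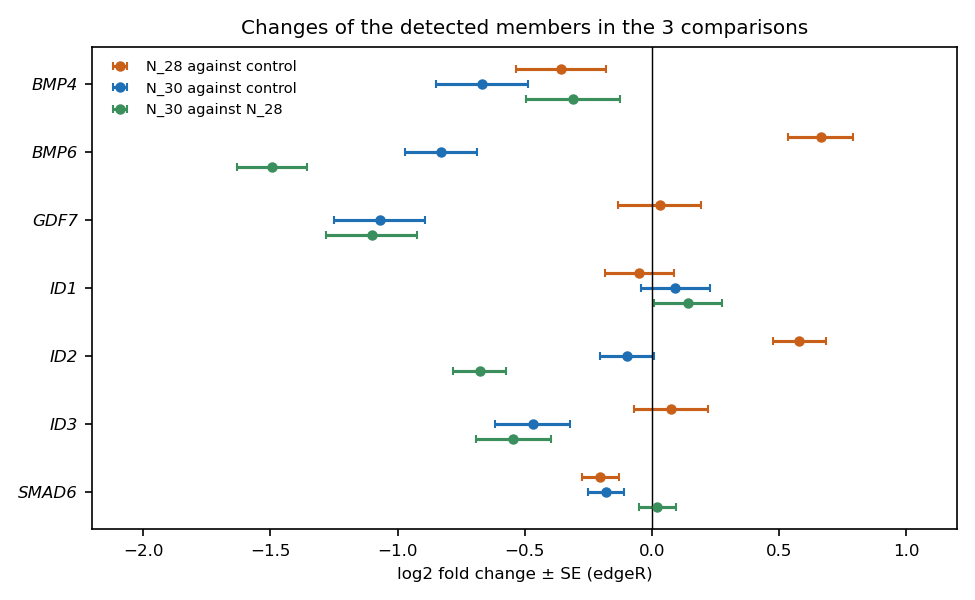
Log2 fold change of the 7 detected members with its SE in the 3 comparisons. BMP6 lies at 0.66 in N_28 and -0.83 in N_30, while ID1 and SMAD6 stay within 0.21 of 0 in all 3.

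Changes of the genes around the members were read within 5 megabases. Over all genes 4.49% rose and 5.75% fell in N_28, and 0.459% rose and 0.406% fell in N_30. Between the sets 9.38% were higher and 8.96% lower in N_30. Around BMP6, 51 other tested genes had a median log2 fold change of 0.05 in N_28, where 9 rose and 1 fell, and -0.03 in N_30, where 0 rose and 2 fell. Between the sets 2 of these 51 were higher and 13 lower in N_30. The 720 other tested genes of chromosome 6 had medians of 0.04 in N_28 and -0.03 in N_30. The part of the region in the values of BMP6 was not tested. Around GDF7 the 34 tested neighbours had medians of -0.01 and -0.02, with 1 higher and 1 lower in N_28, and around ID2 33 neighbours had medians of 0.02 in N_28, with 3 higher and 2 lower, and -0.08 in N_30. The 119 neighbours of ID3 had medians of -0.02 and -0.0041, with 3 higher and 8 lower in N_28, and the 71 of BMP4 had 0.08 and -0.04, with 6 higher and 5 lower. ID1 lay close to its 70 neighbours, which had medians of -0.07 in N_28, where 12 fell and 0 rose, and 0.05 in N_30. The 398 other tested genes of chromosome 20 had medians of -0.06 and 0.05. The part of the region in the values of ID1 was not tested. The 73 neighbours of SMAD6 had medians of -0.07 and 0.04, with 4 higher and 6 lower in N_28. Over the whole chromosome the medians were -0.06 and 0.03 for SMAD6, and 0.06 and -0.03 for BMP4.

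**Figure D4:**
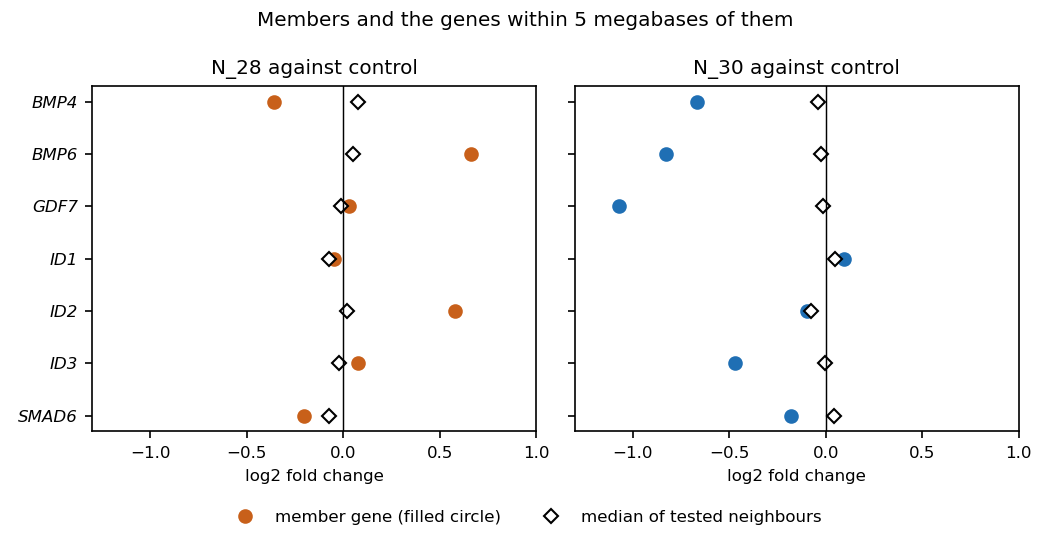
Log2 fold change of each detected member (filled circles) beside the median of the tested genes within 5 megabases (open diamonds), for each knock-down set against control. The medians lie between -0.08 and 0.08, while BMP6, GDF7 and ID2 reach 0.66, -1.07 and 0.58.

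The genes whose course over the 9 libraries was most like that of ID1, ID2, ID3 and GDF7 were found by the root mean square (RMS) difference of log2 CPM, centred on each gene's mean, among 10583 named genes of at least 5 CPM. For ID2 they were ALDH3A2 (0.07), the urokinase gene PLAU (0.09) and the chromatin protein gene HMGA1 (0.09). ALDH3A2, an aldehyde dehydrogenase of fatty aldehydes, averaged 74.2 CPM in control, 111 CPM in N_28 and 68.5 CPM in N_30. For GDF7 they were LRATD2 (0.19), ZBED2 (0.21) and APBA1 (0.22). For ID3 they included RAB40B (0.12) and ZNF543 (0.12), and for ID1 they were SIGIRR (0.08), TRIM7 (0.08) and AURKAIP1 (0.09). ID1 itself had an RMS of 0.18 around its own mean, ID2 of 0.31, ID3 of 0.32 and GDF7 of 0.53.

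The wider pathway was read from 9 lists of 114 other genes, of which 75 were tested. Like the members, the lists were chosen with earlier results of these data known. The shares below are therefore a description and support no enrichment. In N_28, 4 rose and 20 fell, so 32.0% passed, against 10.2% of all genes, and the median log2 fold change was -0.115 against -0.0015 over all genes. In N_30, 1 rose and 1 fell, or 2.67% against 0.866% of all genes, with a median of -0.04 against -0.00067. Between the sets 23 were higher and 8 lower in N_30, or 41.3% against 18.3%, with a median of 0.11 against 0.0020. With the replicate block, 6 rose and 3 fell in N_30, where 1.55% of all genes rose and 1.27% fell. Without N_30 replicate 1, 0 pathway genes passed in N_30, and there was 1 without control replicate 1, 2 or 3 or N_28 replicate 2.

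The list of extracellular antagonists, which bind BMP or activin ligands outside the cell, and of BAMBI, a membrane pseudoreceptor that dampens signalling, gave the most calls in N_28. Of 9 tested members 6 fell, 0 rose and 3 did not pass in N_28, where 5.75% of all genes fell and 4.49% rose. All 9 lay below 0, with a median of -0.45, where 50.3% of all tested genes lay below 0. Noggin (NOG), which blocks BMP2, BMP4 and BMP7 among others, went from 11.2 ± 0.982 CPM in control to 4.27 ± 0.294 CPM in N_28 (SD, n = 3 each), a log2 fold change of -1.40 (SE 0.14, adjusted p = 3.39e-05), and read 10.4 ± 1.85 CPM in N_30. BMPER, which binds BMPs and can act for or against them, was 9.42 ± 2.73 CPM in control, 3.57 ± 0.843 CPM in N_28 and 16.4 ± 4.96 CPM in N_30. It fell in N_28 (-1.41, adjusted p = 0.00371), did not pass in N_30 (0.80, adjusted p = 0.153; 0.000753 with the replicate block), and was 2.21 higher in N_30 than in N_28 (adjusted p = 5.23e-05). FSTL1, a secreted follistatin-like protein, fell in N_28 by 1.15 (adjusted p = 1.30e-05), and FSTL3, an activin antagonist, by 0.45 (adjusted p = 0.0323). TWSG1 and SOSTDC1, named after their values were seen, were the other 2 that fell. TWSG1 fell by 0.36 (adjusted p = 0.0307 by edgeR). SOSTDC1 was low, at 0.904 ± 0.206 CPM in control and 0.380 ± 0.157 CPM in N_28, and passed narrowly (adjusted p = 0.0430 by edgeR). FSTL3 did not pass in N_28 without control replicate 1 (-0.31), control replicate 2 (-0.45), or N_28 replicates 1 (-0.43), 2 (-0.49) or 3 (-0.42). Between the sets 6 of 9 were higher and 0 lower in N_30, where 9.38% of all genes were higher and 8.96% lower. Among the 6 was BAMBI (0.59, adjusted p = 0.0167), also named after its values were seen. In N_30 against control 0 of the 9 passed, and 3 rose with the block, BMPER, BAMBI (adjusted p = 0.0116) and FSTL3 (adjusted p = 0.0160). GREM1, a BMP antagonist at 33.0 ± 9.64 CPM in control, passed in no comparison without the block and was higher in N_30 than in N_28 with it (adjusted p = 0.0170).

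Of 13 tested receptors and co-receptors, 3 fell and 0 rose in N_28, where 5.75% of all genes fell and 4.49% rose. None passed in N_30 against control, where 0.866% of all genes passed. N_30 exceeded N_28 for 3 and was below it for 2, against 9.38% and 8.96% of all genes. BMPR1B, a type I BMP receptor, was low throughout, at 3.11 ± 0.285 CPM in control, 0.470 ± 0.116 CPM in N_28 and 2.63 ± 0.394 CPM in N_30, a log2 fold change of -2.71 in N_28 (adjusted p = 1.43e-05). Neogenin (NEO1), the receptor of RGM co-receptors, fell by 1.54 in N_28 (adjusted p = 3.14e-06), from 15.6 ± 1.26 to 5.32 ± 0.703 CPM. TGFBR1, the type I receptor of TGF-beta, fell by 0.90 (adjusted p = 4.28e-05). With the replicate block ACVR2B, a type II receptor named after its values were seen, fell in N_30 (-0.47, adjusted p = 0.0297). The co-receptor TGFBR3 passed between the sets alone, lower in N_30 by a log2 difference of -0.55 (adjusted p = 0.00245). The main type II receptor gene BMPR2 (79.2 ± 5.64 CPM in control) and TGFBR2 (151 ± 13.5 CPM) passed in no comparison.

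Of 5 other BMP and GDF ligand genes tested, 2 fell in N_28, where 5.75% of all genes fell. GDF6, a ligand of joint and eye development, had 249 counts over the 3 control libraries, 7 over N_28 and 275 over N_30, a ratio of 0.0283 of N_28 to control (95% exact interval of the counts 0.0113 to 0.0592, counting error only; adjusted p = 0.000162). BMP3, a ligand that opposes other BMPs, read 3.61 ± 1.24 CPM in control, 1.53 ± 0.296 CPM in N_28 and 1.57 ± 0.441 CPM in N_30. It fell in N_28 by 1.25 (adjusted p = 0.00957) and had a log2 fold change of -1.21 in N_30 (adjusted p = 0.0576; 0.00817 with the replicate block). GDF11 passed between the sets alone (0.34, adjusted p = 0.00978), and not without N_28 replicate 1 (0.28) or N_30 replicate 2 (0.29). BMP5, close in sequence to BMP6 and BMP7, stood at 11.6 ± 1.61 RPKM in control, above each member ligand, and passed in no comparison, as did BMP8B.

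Of 6 activin and TGF-beta ligand genes tested, the activin subunit INHBB fell by 1.35 in N_28 (adjusted p = 2.79e-05), from 21.6 ± 2.72 to 8.48 ± 1.18 CPM, and INHBA rose by 0.37 (adjusted p = 0.0107). INHBA did not pass in N_28 without the libraries numbered 3 (0.28). Of all genes 4.49% rose and 5.75% fell in N_28. None of the 6 passed in N_30 against control, where 0.866% of all genes passed. Between the sets INHBB and TGFB2 were higher and INHBA lower in N_30, where 9.38% of all genes were higher and 8.96% lower. TGFB2 (0.27, adjusted p = 0.0374) did not pass without N_28 replicates 1 (0.23), 2 (0.27) or 3 (0.30) or N_30 replicates 1 (0.15) or 2 (0.29). Nor did it pass with only the groups compared (0.26). TGFB1, at 312 ± 34.8 CPM in control, and TGFB3 passed in no comparison.

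The SMAD genes that carry the signal passed in no comparison without the block, and SMAD1, named after its values were seen, fell in N_28 with it (-0.41, adjusted p = 0.0320). Of 6 tested SMADs, SMAD7, an inhibitory SMAD like SMAD6, was the 1 that fell in N_28, from 57.6 ± 5.79 to 44.1 ± 2.03 CPM (-0.39, adjusted p = 0.0193), and it was higher in N_30 than in N_28 (0.54, adjusted p = 0.00148). SMAD7 did not pass in N_28 without control replicate 1 (-0.30) or N_28 replicates 2 (-0.37) or 3 (-0.36). SMAD2 and SMAD3, which serve TGF-beta and activin, passed in no comparison. Of 12 intracellular regulators, 1 rose and 2 fell in N_28 and 0 passed in N_30. Of all genes 4.49% rose and 5.75% fell in N_28, and 0.866% passed in N_30. N_30 exceeded N_28 for 9.38% of all genes and was below it for 8.96%. SMURF2, a ubiquitin ligase of SMADs and their receptors, rose from 127 ± 19.6 to 205 ± 35.6 CPM in N_28 (0.70, adjusted p = 0.00874), and its relative SMURF1 fell by 0.26 (adjusted p = 0.00728). The SMAD repressor gene SKIL fell by 0.54 in N_28 (adjusted p = 0.0153), not without control replicate 1 (-0.48), control replicate 2 (-0.49) or N_28 replicate 1 (-0.51). Between the sets 3 were higher and 2 lower in N_30, SKI among the higher (0.34, adjusted p = 0.00732), and SKIL (0.51, adjusted p = 0.0155) did not pass there without N_28 replicate 1 (0.47) or N_30 replicates 1 (0.38) or 2 (0.48). PPM1A and NEDD4L passed in no comparison without the block and were lower in N_30 than in N_28 with it (adjusted p = 0.0331 and 0.0385). With the block 8 of the 12 passed between the sets, where 24.5% of all genes passed.

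Other genes that respond to BMPs went in both directions. Of 9 tested, 2 rose and 1 fell in N_28, 1 fell in N_30, and N_30 exceeded N_28 for 3 and was below it for 3. Of all genes 4.49% rose and 5.75% fell in N_28, and 0.406% fell in N_30. N_30 exceeded N_28 for 9.38% of all genes and was below it for 8.96%. RUNX3, a runt family transcription factor, had 22.6, 17.9 and 19.4 CPM in control, 33.8, 35.8 and 44.1 CPM in N_28, and 9.99, 12.3 and 12.8 CPM in N_30. No library of a group overlapped another group. It rose by 0.93 in N_28 (SE 0.12, adjusted p = 0.000224) and fell by 0.76 in N_30 (SE 0.13, adjusted p = 0.0130), and the N_30 call was lost without control replicate 1 (-0.67) or N_30 replicate 1 (-0.67). ATOH8, a liver BMP target, was low, at 1.53 ± 0.418 CPM in control, 0.464 ± 0.0936 CPM in N_28 and 1.98 ± 0.372 CPM in N_30, and fell in N_28 by 1.69 (adjusted p = 0.00339). The homeobox gene MSX1 rose by 0.52 in N_28 (adjusted p = 0.0255), not without control replicates 1 (0.49) or 3 (0.52), N_28 replicates 1 (0.46) or 3 (0.45) or the libraries numbered 3 (0.44). HEY1 passed between the sets alone, lower in N_30 (-1.15, adjusted p = 0.00301), and without the libraries numbered 3 MSX1 did not pass there (-0.50). DLX2 and GATA2 passed in no comparison. Hepcidin (HAMP) did not pass the expression filter.

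Of 8 tested genes that respond to TGF-beta, 2 fell in N_28 and 1 rose in N_30, where 5.75% and 0.459% of all genes did. TGFBI, a secreted matrix protein, was 358 ± 45.5 CPM in control, 176 ± 21.3 CPM in N_28 and 507 ± 43.6 CPM in N_30. It fell by 1.02 in N_28 (adjusted p = 2.79e-05) and rose by 0.50 in N_30 (adjusted p = 0.0314). The N_30 call of TGFBI was lost without control replicates 2 (0.43) or 3 (0.47), N_28 replicate 2 (0.50), N_30 replicates 1 (0.47) or 3 (0.46) or the libraries numbered 3 (0.43). LTBP2 fell by 0.35 in N_28 (adjusted p = 0.0156), not without control replicates 1 (-0.29) or 3 (-0.32) or N_28 replicates 1 (-0.32) or 2 (-0.30). PMEPA1 passed in no comparison.

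Among 7 tested helix-loop-helix genes, a list made for partners of ID proteins, 2 fell in N_28 and 0 passed in N_30. Over all genes 5.75% fell in N_28. TCF4, an E protein gene, was 3.0 ± 0.384 CPM in control and 1.01 ± 0.303 CPM in N_28 (-1.57, adjusted p = 0.000589). Musculin (MSC), a repressor of the same fold, was 8.10 ± 1.5 CPM in control, 1.28 ± 0.0304 CPM in N_28 and 13.4 ± 4.03 CPM in N_30, with a log2 fold change of -2.66 in N_28 (adjusted p = 2.81e-05) and 0.72 in N_30 (adjusted p = 0.134; 0.00360 with the replicate block). TCF3, the most abundant E protein gene here at 65.1 ± 6.81 RPKM in control, and TWIST1 passed in no comparison. TCF3 thus stood above ID3, the highest ID gene, at 32.2 ± 3.49 RPKM.

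**Figure D5:**
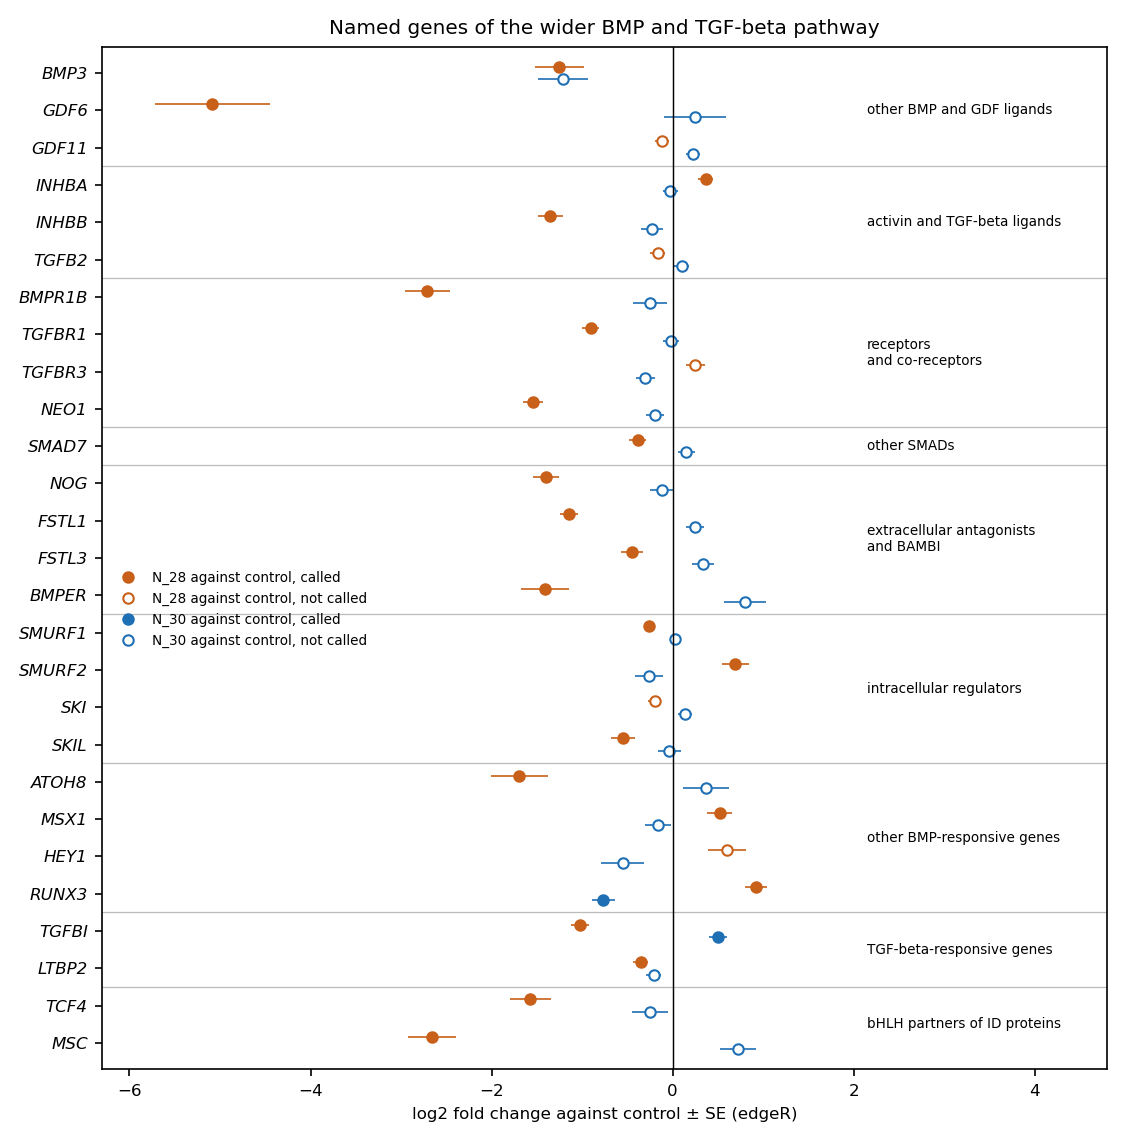
Log2 fold change against control, with its SE, of the named genes of the wider pathway that passed in at least 1 comparison, grouped by list. Filled circles passed at an adjusted p under 0.05 and open circles did not. Most filled circles belong to N_28 and lie below 0, down to GDF6, and RUNX3 and TGFBI are filled on opposite sides of 0 in the 2 sets.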

How the data were processed

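The authors deposited a table of unnormalized counts with 1 column per library, in which rows are human Ensembl genes. The submitters' processing notes name the build mm8, a mouse build. The aligner, counter and strand setting, and the annotation, are unknown here. Symbols came from a gene name table (56434 rows) or GENCODE release 29 (434 rows), and 3580 rows had none. Counts were scaled by TMM and fitted with edgeR 4.0.16 (R 4.3.3): expression filter at a minimum count of 10, 1 term per group over all 9 libraries, quasi-likelihood test, Benjamini-Hochberg adjustment over 15019 genes, calls at an adjusted p under 0.05. The fit was checked on simulated data. SE is the log2 fold change divided by the square root of F. Within groups, pairs of libraries had a chi-square per gene between 3.43 and 11.7, so none was treated as a copy.

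Same-numbered libraries of control and N_30 deviated together (correlations of 0.122, 0.169 and 0.306), a pairing read from the data, since the labels state none. Pairs of control and N_28 (-0.0588 to 0.142) and of the 2 sets (-0.0253 to 0.235) had values on both sides of 0. Their highest values, 0.142 and 0.235, were those of the libraries numbered 3 and lay above the 0.122 of control and N_30. A shared effect of the number is therefore not confined to control and N_30. Named genes were the 10 members, OPA1, up to 4 genes of each list passing in any comparison by lowest adjusted p, up to 2 of the highest level passing in none, and the 3 genes most like ID1, ID2, ID3 and GDF7; 2 of the genes so chosen are not reported here. Members and lists were chosen with earlier results of these data known. Alternatives were DESeq2 1.42.0, its size factors, other filters, only the groups compared, the replicate block, each library left out and, added after seeing the data, the libraries numbered 3 left out.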

Additional observations from a re-analysis of the deposited data

Results flagged for a closer look

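Of the 7 tested members and 75 tested pathway genes, 3 passed in both knock-down sets in opposite directions and differed between the sets. How many of all 15019 tested genes did so was not counted, so nothing is read from this number. BMP6 was higher in N_28 and lower in N_30, with a log2 difference of N_30 minus N_28 of -1.49, which is a description, since the gene was picked on these values. RUNX3 rose in N_28 and fell in N_30, with a difference of -1.69 (adjusted p = 1.32e-06 by edgeR, all 3 N_30 libraries below all 3 of N_28). TGFBI fell in N_28 and rose in N_30, with a difference of 1.52 (adjusted p = 5.37e-07 by edgeR, all 3 N_30 libraries above all 3 of N_28). RUNX3 and TGFBI were flagged for their opposite calls, so a difference between the sets follows from the choice. These p-values and the lack of overlap therefore add no support. The call in N_30 against control was lost under 2 of 16 alternatives for RUNX3 and 6 of 16 for TGFBI.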

How the results depend on the processing

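None of the 21 member fold changes, under 16 alternatives each, moved by as much as 1 SD of the libraries, and no called member changed sign. Leaving out 1 library of 3 can hardly move a group mean that far, so this bound says little for those fits. The calls of BMP6 and GDF7 in N_30 and of ID3 between the sets were each lost under at least 1 alternative. ID3 ran from -0.72 to -0.35 between the sets. Of 52 other called values, 39 passed under every alternative, 13 did not under at least 1, and 0 reversed. With the replicate block, N_30 against control had 424 genes called and 9 pathway genes, against 130 and 2 without it. It moved the count of members called in that comparison from 2 to 4 and of antagonists from 0 to 3. N_28 against control had 2301 genes called with the block against 1538 without it, and N_30 against N_28 had 3673 against 2755. Neither these counts nor those of the pathway genes there moved by over 1.5 times. N_30 against control had 257 genes and 5 pathway genes by DESeq2, and 523 and 13 with no filter on low counts. It had 4 pathway genes without the libraries numbered 3. With each library left out in turn, N_30 against control had 58 to 180 genes and 0 to 3 pathway genes, and N_28 against control had 967 to 1712 genes and 17 to 24 pathway genes. The lowest count in N_28 came without N_28 replicate 1, and those in N_30 without N_30 replicate 2 (58), N_30 replicate 1 (71) and control replicate 3 (78). Between the sets it gave 1850 to 2919 genes and 24 to 32 pathway genes. The cause of these shifts was not tested. BMP2, BMP7 and ID4 had too few counts for a fold change.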
